A study of Mus musculus with 6 samples.

Results

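Cardiac muscle contracts when calcium released from the sarcoplasmic reticulum reaches the myofilaments, and 10 genes that carry this cycle were followed here across mouse tissues: Atp2a2, Pln, Sln, Ryr2, Casq2, Trdn, Hrc, Jph2, Cacna1c and Slc8a1. They were chosen by name for their known function, without a threshold on any value, though earlier results of these data were known. They are the rows whose Ensembl gene identifiers carry these symbols, and all 10 were found among 18437 protein-coding mRNAs. Ribo-seq was the measurement, in which stretches of mRNA shielded by ribosomes from nuclease are sequenced. Heart and lung, brain, kidney, colon and small intestine were taken from untreated wild-type (WT) C57BL/6J mice at 4 weeks of age, which all groups share, and each tissue gave 1 library. How many animals stood behind a library was not given in the sources used here. Ribosome density is given in RPKM, the reads on a coding sequence (CDS) scaled by its length and by the reads on all CDSs of that library.

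In a heartbeat, the L-type channel of the surface membrane, whose pore is encoded by Cacna1c, lets in a small calcium current that opens the release channel Ryr2 on the sarcoplasmic reticulum. Relaxation follows when the pump SERCA2, encoded by Atp2a2, returns calcium to the store and the sodium-calcium exchanger, encoded by Slc8a1, expels the rest. The small membrane proteins phospholamban (Pln) and sarcolipin (Sln) restrain the pump, Casq2 and Hrc bind calcium within the store, Trdn anchors them to the release channel, and Jph2 holds the store membrane close to the surface membrane.

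The libraries held between 4504853 and 10635031 reads on CDSs, with 8183035 in heart, and between 11520 and 15028 mRNAs with reads. Tissue markers went against 4 of the 6 labels. The summed density of 3 small intestine markers was highest in the brain-labelled library, that of 3 kidney markers in the colon-labelled library, that of 3 colon markers in the kidney-labelled library and that of 3 brain markers in the small intestine-labelled library. These libraries are therefore named by their labels throughout, and the comparison of heart with the lung-labelled library, whose label the markers bear out, is given beside the comparison with all 5. The heart-labelled library held the markers of heart muscle: Tnnt2 at 20788 RPKM, Tnni3 at 24269 RPKM and Myh6 at 6616 RPKM. Markers of both chamber types were read there, with the atrial light chain Myl7 at 4983 RPKM and the ventricular Myl2 at 17347 RPKM. Of 5 skeletal muscle markers, Acta1 had 76.9 RPKM there, Myh1 8.18 RPKM, Tnnt3 0.599 RPKM and Myh4 0.042 RPKM, and Actn3 had no reads. Since each tissue had a single library, replicate error is unknown and differences were not tested. Intervals are at 95%, from exact Poisson limits for densities, exact binomial limits for ratios and Wilson limits for shares of reads, and cover counting error only. The methods describe no molecular identifiers. Copies made by amplification would count as separate reads and make these intervals too narrow.

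Pln and Sln encode micropeptides, and their CDSs can be shown whole. The Pln CDS has 52 codons and the Sln CDS 31, and Strit1, which encodes the micropeptide DWORF that displaces phospholamban from the pump, has 34. They are printed 5′ to 3′ with the stop codon, from GENCODE M39 transcripts on GRCm39, because the ratio of pump to inhibitor below rests on how few bases carry their reads. Capitals mark in Pln the codons 16 and 17, for the serine and the threonine that protein kinase A and CaMKII phosphorylate to release the pump, and in Sln and Strit1 the start and stop codons.
Pln: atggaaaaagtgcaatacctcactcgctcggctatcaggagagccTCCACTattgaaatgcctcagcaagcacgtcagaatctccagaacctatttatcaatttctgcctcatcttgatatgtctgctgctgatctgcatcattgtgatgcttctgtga
Sln: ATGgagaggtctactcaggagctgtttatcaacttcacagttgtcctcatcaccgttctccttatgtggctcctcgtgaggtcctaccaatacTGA
Strit1: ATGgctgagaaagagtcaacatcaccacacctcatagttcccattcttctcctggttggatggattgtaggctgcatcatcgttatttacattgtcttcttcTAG
Pln lies on chromosome 10 from 53199622 to 53223512 on the plus strand, Sln on chromosome 9 from 53742537 to 53761846 on the plus strand, and Strit1 on chromosome 3 from 63388516 to 63391389 on the minus strand. The annotation holds 1 CDS length for Pln (156 bases without the stop codon) and 1 for Sln (93 bases).

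All 10 genes had their highest ribosome density in heart, and 8 of them exceeded the highest of the other 5 libraries at least 4-fold. Among the 14362 mRNAs with at least 30 reads over the 6 libraries, heart was the highest library for 12.7%, and 2.46% passed the 4-fold limit. Pln and Sln reached 30 reads only through their heart reads. The same 8 genes were at least 10-fold higher in heart, as were 1.10% of all mRNAs tested. The median fold of the 10 genes over the highest other library was 20.8, against 0.257 over all mRNAs tested. Cacna1c (3.77-fold, interval 3.52 to 4.03) and Slc8a1 (2.22-fold, interval 2.12 to 2.33) fell short of 4-fold. Cacna1c lay just below the limit, with 4 inside its interval. Against the lung-labelled library alone, all 10 passed 4-fold, as did 17.5% of all mRNAs tested, and without the small intestine-labelled library 9 of the 10 passed, as did 3.61% of all mRNAs tested, Cacna1c then standing at 8.25-fold. In the ribosome density of bulk tissue, fewer cells of a type, less RNA per cell and fewer ribosomes per mRNA cannot be told apart.

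**Figure D1:**
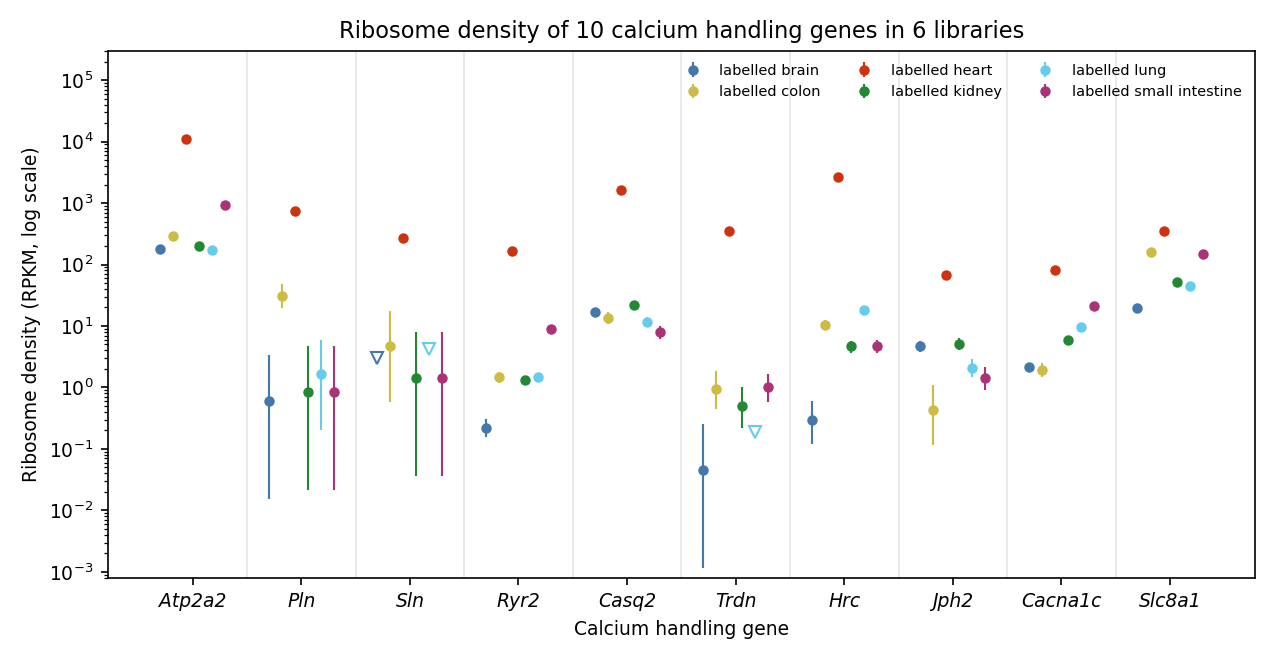
Ribosome density (RPKM, log scale) of the 10 genes in each of the 6 libraries, named by label; points are single libraries, bars are 95% Poisson intervals, and open triangles stand at the density of 3 reads where a gene had no reads. The heart point is the highest for every gene, with the narrowest distance to the next library for Slc8a1.

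The 10 genes together took 4.74% of all reads on CDSs in heart (388284 reads, interval 4.73 to 4.76%). The same share was 0.369% in the small intestine-labelled library, 0.145% in the colon-labelled one, 0.0887% in the kidney-labelled one, 0.0826% in the lung-labelled one and 0.0666% in the brain-labelled one. Most of these reads were on Atp2a2, which alone took 3.46% of the reads in heart and 72.8% of those on the 10 genes. In the other libraries Atp2a2 made up between 62.0% and 83.9% of the reads on the 10 genes, so the pump dominated the reads of the set in every library.

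Atp2a2 lies on chromosome 5 from 122591575 to 122640903 on the minus strand. Its ribosome density was 11031.5 RPKM in heart (interval 10991 to 11072), 943 in the small intestine-labelled library, 287 in the colon-labelled one, 200.2 in the kidney-labelled one, 178 in the brain-labelled one and 175 in the lung-labelled one. It ranked at place 10 of all mRNAs in heart. The pump was thus read in every library, and heart stood 11.7-fold (interval 11.5 to 11.9) above the small intestine-labelled library, which carries the brain markers. Without that library the fold was 38.5, and against the lung-labelled library it was 62.9. Among the other libraries, those labelled brain and lung did not differ beyond counting error, meaning that the interval of their ratio held 1. The transcript in the files carries the longer carboxyl end of the general isoform SERCA2b. The annotated cardiac isoform SERCA2a, with a CDS of 2994 bases, shares the first 2983 bases with it, so that the reads of these isoforms cannot be told apart in a value per gene.

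Pln had 736 RPKM in heart (940 reads, interval 690 to 785, rank 173), 31.3 RPKM from 22 reads in the colon-labelled library, 1.66 from 2 reads in the lung-labelled one, 0.845 from 1 read in the kidney-labelled one, 0.839 from 1 read in the small intestine-labelled one and 0.603 from 1 read in the brain-labelled one. The colon-labelled library, which carries the kidney markers, was the only other library with more than 2 reads, and heart exceeded it 23.5-fold (interval 15.4 to 37.7). The remaining 4 libraries were not distinguishable at this depth. The heart muscle actin Actc1 had 103 RPKM in the same library, 3.82% of its heart level, while Pln stood at 4.25% of its heart level. The part of heart muscle RNA in that Pln value was not tested.

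Sln had 272 RPKM in heart (207 reads, interval 236 to 312, rank 428). Elsewhere it had 4.77 RPKM from 2 reads in the colon-labelled library, 1.42 from 1 read in the kidney-labelled one, 1.41 from 1 read in the small intestine-labelled one and no reads in those labelled brain and lung, where 3 reads would give 3.03 and 4.17 RPKM. Heart stood 57.0-fold above the colon-labelled library, with an interval from 15.6 to 474 because of the 2 reads, and the other 5 libraries could not be ordered. With 3 reads in place of 2, as counted against the 4-fold limit, the fold was 38.0. In the adult heart sarcolipin is known as the pump inhibitor of the atria. The lung-labelled library held the atrial light chains Myl7 at 426 RPKM and Myl4 at 527 RPKM and the atrial hormone gene Nppa at 207 RPKM, whereas the atrial ligand gene Bmp10 had 0.102 RPKM there and Sln had no reads.

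In heart the pump had 15.0 times the ribosome density of Pln (interval 14.1 to 15.99) and 40.6 times that of Sln (interval 35.4 to 46.7). Set against the summed density of Pln and Sln, 1008 RPKM, the pump stood at 10.9. This sum leaves out the other pump regulators, given below. Pln in turn had 2.71 times the density of Sln (interval 2.33 to 3.16). The colon-labelled library was the only other library with enough Pln reads for the ratio, and there the pump stood at 9.16 times Pln (interval 6.04 to 14.6). These ratios compare densities per length of CDS, not amounts of protein, and they depend on how length is counted in CDSs this short. With 60 bases taken off every CDS, a fixed setting not derived from footprint length, the ratio to Pln was 9.40 and that to Sln 14.7. In plain reads per gene they were 301 and 1366.

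Pump regulators other than Pln and Sln differed in where they were read. Strit1 had 43.1 RPKM in heart from 36 reads, 3.85 RPKM from 3 reads in the small intestine-labelled library and no reads in the other 4. Pln thus had 17.1 times the density of Strit1 in heart (interval 12.2 to 24.5). Arln, which encodes the broadly expressed micropeptide another-regulin, had 330 RPKM in heart, close to the 346 RPKM in the kidney-labelled library and the 317 RPKM in the small intestine-labelled one. In heart, Arln stood between Pln and Sln, with Pln 2.23 times above it (interval 2.01 to 2.49) and Arln 1.21 times above Sln (interval 1.03 to 1.43). Erln, the micropeptide of epithelia, had 3.64 RPKM in heart and 174 RPKM in the kidney-labelled library, and Mrln, the micropeptide of skeletal muscle, had reads only in the lung-labelled library (6.56 RPKM).

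**Figure D2:**
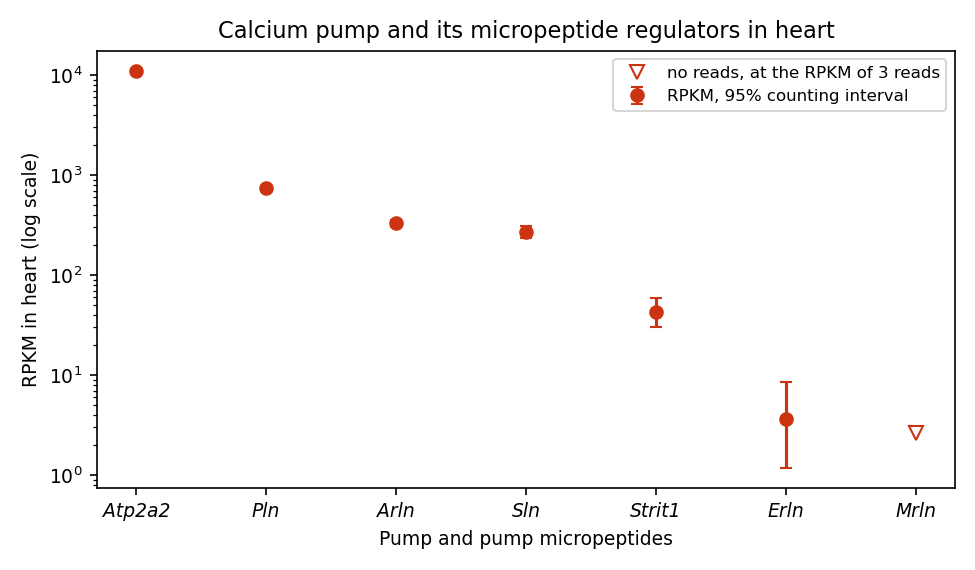
Ribosome density (RPKM, log scale) of the pump Atp2a2 and its micropeptide regulators in the heart library; points are the single library, bars are 95% Poisson intervals, and the open triangle stands at the density of 3 reads for Mrln, which had none. Pln, Arln and Sln lie between 272 and 736 RPKM, below Atp2a2 at 11031.5 RPKM and above Strit1 at 43.1 RPKM.

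Ryr2, the release channel, lies on chromosome 13 from 11567988 to 12121870 on the minus strand and has the longest CDS of the 10, with 4966 codons. Its ribosome density was 163 RPKM in heart (19882 reads, interval 161 to 165, rank 695), 9.04 in the small intestine-labelled library, 1.502 in the lung-labelled one, 1.48 in the colon-labelled one, 1.30 in the kidney-labelled one and 0.221 in the brain-labelled one. Heart exceeded the small intestine-labelled library 18.0-fold (interval 16.9 to 19.2) and the lung-labelled one 109-fold, which is also the fold without the small intestine-labelled library. The libraries labelled lung and colon, and those labelled colon and kidney, did not differ beyond counting error. Heart was thus far above the other 5 libraries, of which the small intestine-labelled one, with the brain markers, was the only one above 2 RPKM.

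Casq2, calsequestrin, the calcium buffer of the cardiac store, had 1603 RPKM in heart (16449 reads, interval 1579 to 1628, rank 78). Elsewhere it had 21.7 RPKM in the kidney-labelled library, 17.1 in the brain-labelled one, 13.5 in the colon-labelled one, 11.6 in the lung-labelled one and 7.93 in the small intestine-labelled one. Heart stood 74.0-fold above the kidney-labelled library (interval 64.5 to 85.3) and 139-fold above the lung-labelled one. The libraries labelled brain and colon, and those labelled colon and lung, did not differ beyond counting error. The libraries labelled kidney and brain, the highest others, also held the highest summed density of 4 smooth muscle markers, 3835 and 2958 RPKM, against 31.6 to 583 RPKM in the rest. The part of smooth muscle in these Casq2 values was not tested.

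Hrc, the histidine-rich calcium-binding protein of the store, had 2658 RPKM in heart (48151 reads, interval 2634 to 2682), which put it at rank 42 and second to Atp2a2 among the 10 genes. The other libraries gave 18.1 RPKM under the label lung, 10.5 under colon, 4.67 under small intestine, 4.65 under kidney and 0.297 under brain. Heart exceeded the lung-labelled library 147-fold (interval 132 to 165). Scaling by the median ratio over 8649 mRNAs read in all libraries instead of by total reads raised this fold to 229, since it lowered the lung-labelled library against heart by 0.64 on the log2 scale, the colon-labelled one by 0.32 and the brain-labelled one by 0.26, and moved the others by less than 0.1. The libraries labelled small intestine and kidney did not differ beyond counting error. In heart, Hrc had 1.66 times the density of Casq2 (interval 1.63 to 1.69).

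Trdn, triadin, lies on chromosome 10 from 32956550 to 33356376 on the plus strand and had 347 RPKM in heart (5905 reads, interval 338 to 356, rank 346). It had few reads elsewhere, with 1.01 RPKM from 16 reads in the small intestine-labelled library, 0.961 from 9 reads in the colon-labelled one, 0.507 from 8 reads in the kidney-labelled one, 0.0452 from 1 read in the brain-labelled one and no reads in the lung-labelled one, where 3 reads would give 0.187 RPKM. Its fold of 345 (interval 212 to 604) was the highest of the 10. Against the lung-labelled library it was 1859-fold higher with 3 reads put in place of none. With 1 RPKM added to both sides the fold was 173. The annotation lists 48 complete Trdn transcripts with CDSs of 621 to 2115 bases, and the files count reads over 2079 bases. Set against the shortest CDS, the density of Trdn over Ryr2 in heart would be 7.13 in place of 2.13.

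Jph2, junctophilin, lies on chromosome 2 from 163178162 to 163239920 on the minus strand and had 66.8 RPKM in heart (1142 reads, interval 63.0 to 70.8, rank 1471), the lowest of the 10 there. The kidney-labelled library followed with 5.12 RPKM, the brain-labelled one with 4.68, the lung-labelled one with 2.11, the small intestine-labelled one with 1.44 and the colon-labelled one with 0.425 from 4 reads. Heart was 13.1-fold above the kidney-labelled library (interval 10.4 to 16.6) and 31.7-fold above the lung-labelled one. As for Casq2, the highest others were the libraries labelled kidney and brain, with the highest smooth muscle marker sums, and their difference lay within counting error. The part of smooth muscle in the Jph2 values was not tested.

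**Figure D3:**
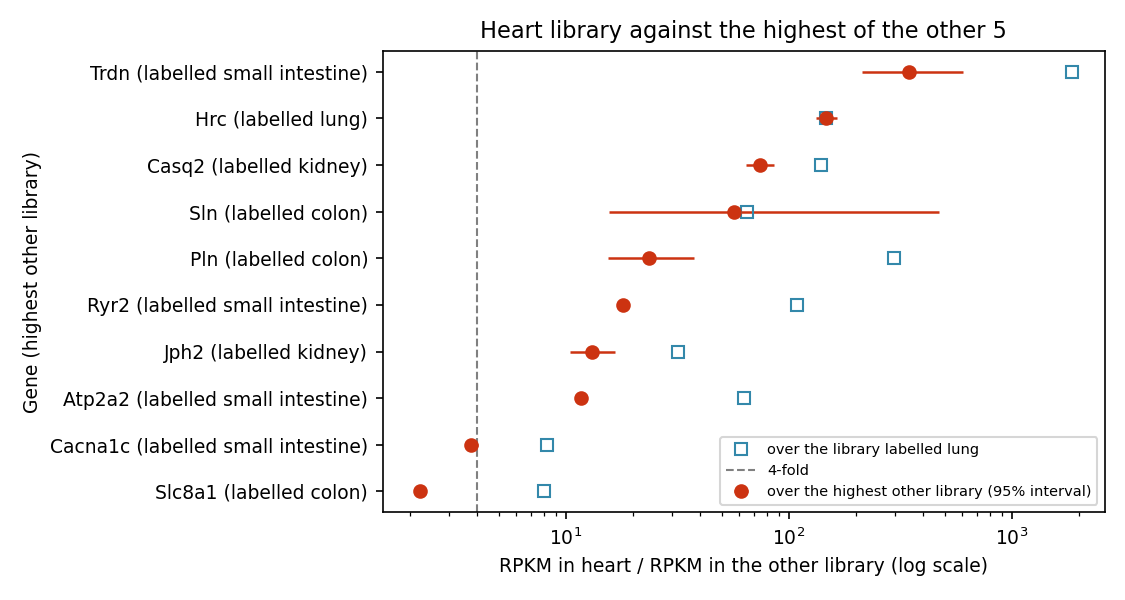
Ribosome density in heart over that in the highest other library (filled, with 95% counting interval) and over that in the lung-labelled library (open squares), on a log scale, with a dashed line at 4-fold; for Pln, Sln and Trdn, with under 3 reads in the lung-labelled library, the open square uses the density of 3 reads. Cacna1c and Slc8a1 lie left of the dashed line for the highest other library, and every open square lies right of it.

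At the surface membrane the contrast between tissues was smaller. Cacna1c, on chromosome 6 from 118564201 to 119173851 on the minus strand, had 80.6 RPKM in heart (4395 reads, interval 78.2 to 83.0, rank 1258), 21.4 in the small intestine-labelled library, 9.76 in the lung-labelled one, 5.97 in the kidney-labelled one, 2.16 in the brain-labelled one and 1.93 in the colon-labelled one. Only the last 2 did not differ beyond counting error. Slc8a1, on chromosome 17 from 81680534 to 82045891 on the minus strand, had 356 RPKM in heart (8484 reads, interval 349 to 364, rank 338), 160.5 in the colon-labelled library, 150.5 in the small intestine-labelled one, 52.1 in the kidney-labelled one, 44.7 in the lung-labelled one and 19.7 in the brain-labelled one. When scaled by total reads, each library in this order differed from the next beyond counting error. The closest pair was the colon-labelled (interval 154 to 168) and the small intestine-labelled (145 to 156), and their order depended on scaling. The small intestine-labelled library was the higher of the pair under median-ratio scaling, and also with the mRNA Kri1 left out of the totals. Kri1 took 14.1% of the reads there and 6.79% in the colon-labelled library. Against the lung-labelled library, Cacna1c was 8.25-fold and Slc8a1 7.97-fold higher in heart. The exchanger had the highest percent of its heart density of the 10 genes in 4 of the other 5 libraries, reaching 45.05% and 42.2% of its heart density in the libraries with the kidney and the brain markers.

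Within heart, densities per length of CDS spanned from Jph2 at 0.410 times Ryr2 to Atp2a2 at 67.6 times Ryr2. The store proteins lay above the release channel, with Hrc at 16.3 times Ryr2 (interval 16.03 to 16.6) and Casq2 at 9.83 (interval 9.63 to 10.03). Pln stood at 4.52 times Ryr2, Slc8a1 at 2.18, Trdn at 2.13 and Sln at 1.67. Slc8a1 and Trdn were close, and the interval of Slc8a1 (2.13 to 2.24) overlapped that of Trdn (2.07 to 2.19). The L-type channel was below the release channel, at 0.494 times Ryr2 (interval 0.478 to 0.510).

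A pair of ratios between a store gene and a surface gene was followed across the libraries. Ryr2 had 2.02 times the density of Cacna1c in heart (interval 1.96 to 2.09), against 0.764 in the colon-labelled library (interval 0.547 to 1.08), 0.423 in the small intestine-labelled one, 0.218 in the kidney-labelled one, 0.154 in the lung-labelled one and 0.102 in the brain-labelled one. For calcium removal, Atp2a2 had 31.0 times the density of Slc8a1 in heart (interval 30.3 to 31.6), against 9.04 in the brain-labelled library, 6.27 in the small intestine-labelled one, 3.92 in the lung-labelled one, 3.84 in the kidney-labelled one and 1.79 in the colon-labelled one. Both ratios were highest in heart, and their intervals there overlapped those of no other library.

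In heart, 6 of the genes made up nearly all of the density of their families. Atp2a2 made up 99.9% of the summed RPKM of the pump genes Atp2a1, Atp2a2 and Atp2a3 in heart, but 53.7% in the kidney-labelled library and 64.7% in the lung-labelled one, where Atp2a3 had 172.6 and 95.9 RPKM. Ryr2 made up 99.8% of the release channel genes in heart and 17.4% in the brain-labelled library, where Ryr3 led with 44.5% at 201 reads for the whole family. Casq2 held 98.7% of the calsequestrin density in heart, with Casq1 at 21.8 RPKM. Jph2 held 94.7% of junctophilin density in heart and 2.69% in the small intestine-labelled library, where Jph3 led with 71.7%. Cacna1c held 98.2% among Cacna1c, Cacna1d and Cacna1s in heart and 44.4% in the lung-labelled library, where Cacna1d held 55.6%. Slc8a1 held 99.9% of the exchanger density in heart and 65.1% in the small intestine-labelled library, beside Slc8a2 (44.6 RPKM) and Slc8a3 (35.9 RPKM).

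**Figure D4:**
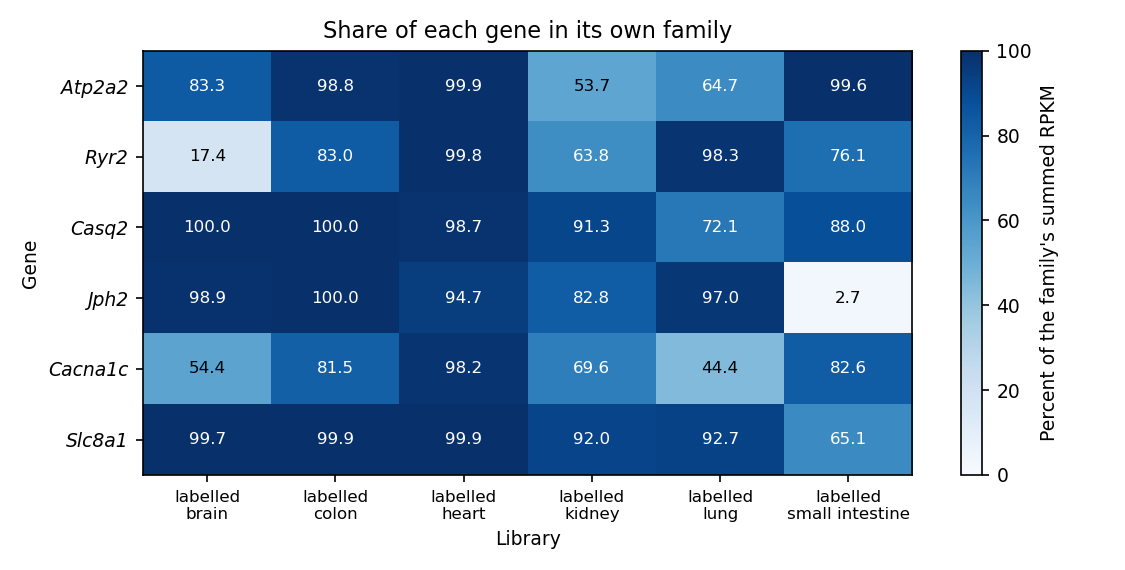
Percent of the summed RPKM of its own gene family that each of 6 genes held in each library, by label; the number in each cell is that percent and the shade follows it from 0 to 100. The heart column runs from 94.7 to 99.9, while single cells outside heart fall to 17.4 for Ryr2 and 2.7 for Jph2; Jph2 in the colon-labelled library rests on 4 reads.

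Levels outside heart were set beside those of 5 heart muscle markers, Myh6, Tnnt2, Tnni3, Actc1 and Mb. In the lung-labelled library the markers stood at 0.149 to 1.17% of their heart level (median 0.644%), and Hrc at 0.679%, Casq2 at 0.721% and Ryr2 at 0.921% were within that range. Slc8a1 at 12.6%, Cacna1c at 12.1%, Jph2 at 3.15% and Atp2a2 at 1.59% were above it. Atrial markers stood higher there, 4 of them at 0.0610 to 11.6% of heart with a median of 7.41%, and only Slc8a1 and Cacna1c were above that range. The excess of Cacna1c, from 503 reads (interval 8.93 to 10.7 RPKM), was within counting error. In the small intestine-labelled library the markers stood at 0.0306 to 0.142% of heart, and Slc8a1 at 42.2%, Cacna1c at 26.5%, Atp2a2 at 8.55% and Ryr2 at 5.55% were far above that range. In all, 9 of the 10 genes were above it there, Sln from 1 read, and Pln at 0.114%, also from 1 read, was within it. For Hrc, at 0.176% from 79 reads, the excess was within counting error. In the colon-labelled library Pln at 4.25% and Slc8a1 at 45.05% exceeded the marker range of 0.481 to 3.82% (median 0.504%), and the other 8 did not. The excess of Pln, from 22 reads (interval 19.6 to 47.4 RPKM), was within counting error. Actc1 alone set the upper end of that range, the other 4 markers reaching 0.624%, and Atp2a2 at 2.60%, Cacna1c at 2.40%, Sln at 1.76% from 2 reads, Ryr2 at 0.905%, Casq2 at 0.839% and Jph2 at 0.636% from 4 reads lay above those 4. In the libraries labelled brain and kidney, Atp2a2, Ryr2, Casq2, Jph2, Cacna1c and Slc8a1 were above the ranges of 0.00673 to 0.123% and 0.0749 to 0.299%, as was Sln from 1 read in the kidney-labelled library. For Ryr2 in the brain-labelled library, at 0.135% from 35 reads, the excess was within counting error. The share of all mRNAs above these marker ranges was not counted, so the counts of genes above them do not set the 10 genes apart. Over all mRNAs tested, the median fold of heart over the highest other library was 0.257. What part of each level came from heart muscle RNA was not tested.

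**Figure D5:**
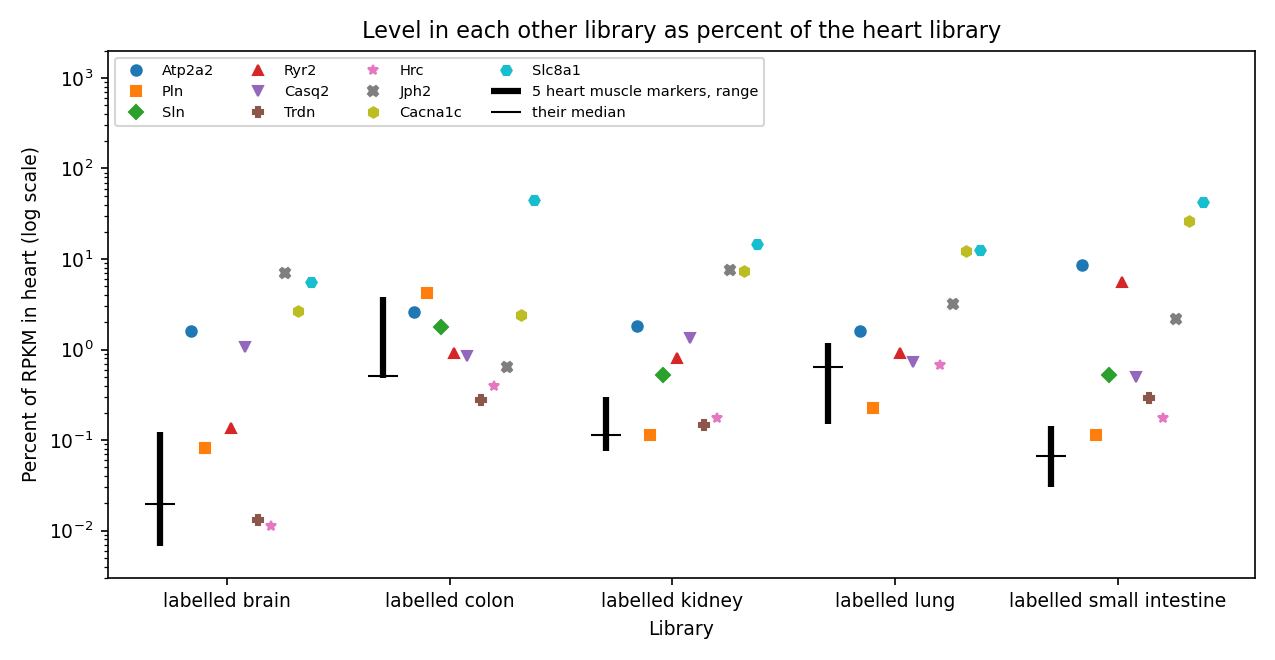
Density in each of the other 5 libraries as percent of that in heart (log scale), for the 10 genes (coloured symbols) and for 5 heart muscle markers (black bar, range; tick, median); genes with no reads are not drawn. Slc8a1 and Cacna1c lie above the marker range in every library except Cacna1c in the colon-labelled library.

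The CDSs of the store proteins stood apart in composition. Compared with 14480 mRNAs read in heart, 30.8% of Hrc codons and 26.6% of Casq2 codons were for aspartate or glutamate, acidic residues that bind calcium at low affinity, against a median of 11.7%. Hrc also had 11.1% histidine codons (median 2.45%), for which it is named, and Trdn had 21.5% lysine codons (median 5.57%) beside 18.9% acidic codons. The share ending in G or C was taken over codons that have synonyms, without those for methionine and tryptophan. It ran from 31.7% in Trdn, at percentile 1.03, to 77.7% in Jph2, at percentile 96.6. The other 8 lay between 53.3% and 71.4%, against a median of 59.5% over the mRNAs read in heart. The final 40 codons of Casq2, 379 to 418, and the codons 543 to 582 of Hrc are printed 5′ to 3′ from GENCODE M39 because these stretches hold the acidic runs. Capitals mark the codons for aspartate and glutamate, 32 of 40 in Casq2 and 27 of 40 in Hrc.
Casq2: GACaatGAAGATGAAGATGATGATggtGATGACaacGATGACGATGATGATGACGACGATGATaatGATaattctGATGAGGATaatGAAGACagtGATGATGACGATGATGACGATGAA
Hrc: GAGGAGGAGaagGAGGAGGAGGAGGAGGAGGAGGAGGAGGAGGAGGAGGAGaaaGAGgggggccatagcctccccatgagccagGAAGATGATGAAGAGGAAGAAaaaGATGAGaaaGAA
Casq2 lies on chromosome 3 from 101993234 to 102056307 on the plus strand, and Hrc on chromosome 7 from 44984681 to 44988401 on the plus strand. The Hrc stretch holds a run of GAG repeats 39 bases long from base 1639 of the CDS, on the coding strand, and a run of that length was present in 5 of 18154 CDSs (0.0275%). Reads that map to more than 1 place were dropped by the authors, and the effect of the repeat on the Hrc density was not tested.

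Of 72 other genes of the calcium cycle in 6 further lists, also chosen with earlier results known, 71 had at least 30 reads. Heart was the highest library for 18 of them (25.4%, against 12.7% of all mRNAs tested), and the small intestine-labelled one for 27 (38.0%, against 22.2%). At least 4-fold higher in heart were 7 (9.86%, against 2.46%), namely Casq1, Srl, Strit1, Cacna1s, Cacnb2, Rrad and Mcub. Of these, Strit1, Cacna1s and Mcub reached 30 reads only through their heart reads. Cacna1s had 0.792 RPKM in heart from 36 reads and 0.188 RPKM from 8 reads in the small intestine-labelled library. In the list of release and store genes, 2 of 20 passed 4-fold and 6 were highest in heart. Srl, sarcalumenin, a calcium-binding protein of the store, had 378 RPKM in heart and at most 8.91 RPKM elsewhere. Tmem38a, the potassium channel TRIC-A of the store membrane, had 1129 RPKM in heart and 744 in the small intestine-labelled library, S100a1, which binds Ryr2 and SERCA2, had 1008 in heart and 401 in the colon-labelled one, and Calm2, calmodulin, had 611 in heart and 4352 in the small intestine-labelled one. Fkbp1a, a subunit bound to the release channel, had 273 RPKM in heart and 496 in the small intestine-labelled library. Asph, whose locus also encodes the Ryr2 partner junctin, had 88.3 RPKM in heart.

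The counts in the lists below stand beside 2.46% of all mRNAs tested past 4-fold and 12.7% highest in heart. In lists this short they are given as a description and do not set parts of the calcium cycle apart. Among 6 pumps and pump micropeptides, 5 had at least 30 reads and 1 passed 4-fold, with Atp2a1 at 0.943 RPKM and Atp2a3 at 5.42 RPKM in heart. The surface channel list had 3 of 12 past 4-fold, with Rrad, an inhibitor of the L-type channel, at 57.5 RPKM in heart and its auxiliary subunit Cacnb2 at 14.5 RPKM, whereas the subunit Cacna2d1 had 73.9 RPKM in heart and 121 in the small intestine-labelled library. For surface extrusion and store-operated entry, 0 of 9 genes were highest in heart, and the plasma membrane pump Atp2b1 had 84.7 RPKM in heart against 798 in the small intestine-labelled library. Mitochondrial calcium genes passed in 1 of 9, with the uniporter subunit Smdt1 at 680 RPKM in heart and 1142 in the brain-labelled library, and the uniporter regulator Micu2 at 251 RPKM in heart and 432 in the colon-labelled one. In the phosphorylation list 0 of 16 passed 4-fold and 5 were highest in heart. Its members with the highest heart density were Prkar1a (1151 RPKM) and Prkaca (340 RPKM) of protein kinase A, the phosphatase subunit Ppp1cb (760 RPKM) and Camk2d (111 RPKM), the calmodulin kinase of heart, while the neuronal Camk2a had 7.83 RPKM in heart and 6863 in the small intestine-labelled library.

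For Pln, Hrc, Casq2 and Trdn, the mRNAs with the nearest profiles over the 6 libraries included genes of the contractile apparatus. Nearness was the Euclidean distance between centred profiles of log2(RPKM + 1), and over 6 libraries it is given as a description. Nearest to Pln were Actc1 (distance 0.74), Fbxo40 and Mybpc3, nearest to Hrc were Actn2 (1.43), Tcap and Csrp3, nearest to Trdn were Adprhl1 (0.81), Unc45b and Lmod2, and nearest to Casq2 were Ankrd23 (1.07), Tpm1 and Unc45b. Sln lay nearest to Mylk3 (0.93), Trim63 and Hspb6. Atp2a2 and Ryr2 were among each other's 3 nearest (0.96), both beside Strit1 and Coro6. Jph2 lay nearest to Usp28 (0.85), Abcc9 and Tmem255b, Cacna1c to Abcc8 (1.11), Fndc5 and Ube2b, and Slc8a1 to Hsf2 (0.57), Ablim1 and Vdac1.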

How the data were processed

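The values deposited by the authors were RPKM, 1 for each mRNA in each library. According to the submitters' processing notes, Cutadapt, STAR and GRCm39 were used. The methods, written for macrophage libraries and taken to hold here, discard reads under 15 nt, align to 1 mRNA per gene, that of longest CDS in Ensembl release 107, and leave out reads with over 2 mismatches or several alignments before reads on the CDS are counted. P-site prediction is described apart from this count. RPKM times CDS length (without the stop codon) gave whole reads for 100% of values, within 0.01 reads. Symbols came from GENCODE M39, and 13 rows had none. Folds used mRNAs with at least 30 reads over the libraries, with 3 reads in place of any lower number in the other library. Named were all 10 genes, up to 4 genes per further list with the highest heart RPKM and up to 2 with the highest RPKM elsewhere, 4 pump micropeptides, and the 3 nearest profiles per gene. Members and lists were chosen with earlier results of these data known. Recovery of reads was tested on simulated data. The tools were pandas 2.3.3, matplotlib 3.10.9, scipy 1.17.1 and numpy 2.4.6 under Python 3.11.15.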

Additional observations from a re-analysis of the deposited data

How the results depend on the processing

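The count of genes at least 4-fold higher in heart was 8, and it lay between 8 and 10 under a limit of 2-fold or 10-fold, other totals and scalings, thinning, an added RPKM of 1, other reference libraries and the omission of each library in turn. The share of all mRNAs past the limit moved with these settings, from 1.10% at 10-fold to 5.17% at 2-fold, and to 11.6% against the median of the other 5 libraries and 17.5% against the lung-labelled one, the last 3 being the settings where the count was 10. Over 6 settings, the folds of the 10 genes gave 60 values. Of these, 39 stayed within the counting interval, 21 moved outside it and 0 reversed to below 1. The lowest was 2.06 for Slc8a1, with Kri1 left out of the totals, an mRNA that took 22.1% of the reads in the kidney-labelled library. In heart, Atp2a2 over Pln was 301 in reads not divided by length and 9.40 with 60 bases taken off each CDS, and Atp2a2 over Sln was 1366 and 14.7, which follows from the lengths used. Thinning to the lowest total gave 15.8 and 40.0. Lengths chosen after seeing the data, with the stop codon or of SERCA2a, gave 15.3 and 15.7 for Pln and 41.8 and 42.4 for Sln. The planned CDS length without the stop codon is the one the files use, and that of the RefSeq protein was not run. No paired analysis was possible because each tissue had 1 library. Outside heart, Pln, Sln and Trdn had at most 22 reads, which limits the order of those libraries.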

Other observations

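Fkbp1b, whose protein binds Ryr2 in heart, had 0.754 RPKM in heart from 2 reads, where 3 reads would give 1.13 RPKM. It had 11.2 RPKM from 28 reads in the lung-labelled library and 40.4 from 100 reads in the small intestine-labelled one. Its paralog Fkbp1a had 273 RPKM in heart. Mcu, the pore of the mitochondrial uniporter, had 8.61 RPKM in heart and 121 in the brain-labelled library, while its dominant negative partner Mcub had 8.03 RPKM in heart and at most 1.52 RPKM elsewhere. These genes were chosen after their values were seen.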
